A study of Mus musculus with 6 samples.

Results

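The genes described here are 38 genes that mark macrophages of adipose tissue or their states, taken from a count table of 24415 genes by matching gene identifiers to symbols. All 38 were in the table, and all 38 passed the filter on low counts. They were sorted by role into lineage genes (7), complement C1q chains (3), Fc gamma receptors (3), markers of resident macrophages (6), genes of alternative activation (4), genes of lipid-associated macrophages (8) and inflammatory or recruited-cell genes (7). RNA came from the inguinal depot, white fat that lies under the skin, of 6 non-fasted C57BL/6 mice, all 12 weeks old. Of these, 3 were WT and 3 were labelled knockout for Hsp20, a small heat shock protein whose gene is Hspb6, with 1 library per mouse. How the allele was made, in which cells it acts and whether WT mice were littermates was information not given in the sources used here. The comparison asks how these genes differ between fat of WT mice and fat of mice labelled Hsp20 knockout.

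Macrophages are the most abundant immune cells of lean adipose tissue, where they clear dying adipocytes and take up released lipid. Resident macrophages carry scavenger and lectin receptors such as CD163, MRC1 and LYVE1 and are maintained through the growth factor receptor CSF1R. In obesity, monocytes that enter through the chemokine receptor CCR2 give rise to cells around dying adipocytes, which express TREM2, GPNMB and other lipid-handling genes, and inflammatory signals through Toll-like receptors add cytokines such as TNF. Transcription of many macrophage genes depends on PU.1, a factor that binds purine-rich sites close to the gene start.

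The proximal promoters of the Fc gamma receptors, the role with the lowest median log2 change below, and of Chil3, the member with the largest fall, are shown so that the receptors of 1 family can be compared with that member. Each run is the 250 bases before the annotated start in RefSeq on GRCm38.p6, read 5′ to 3′ along the gene. Capitals mark any GAGGAA, a purine-rich sequence that PU.1 binds, or its reverse complement TTCCTC.
Fcgr1 (chr3:96293970-96294219, minus strand): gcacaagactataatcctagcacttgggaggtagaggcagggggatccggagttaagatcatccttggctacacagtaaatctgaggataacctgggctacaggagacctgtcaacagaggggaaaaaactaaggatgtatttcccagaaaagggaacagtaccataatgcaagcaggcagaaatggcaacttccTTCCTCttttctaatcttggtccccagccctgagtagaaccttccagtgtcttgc
Fcgr3 (chr1:171059404-171059653, minus strand): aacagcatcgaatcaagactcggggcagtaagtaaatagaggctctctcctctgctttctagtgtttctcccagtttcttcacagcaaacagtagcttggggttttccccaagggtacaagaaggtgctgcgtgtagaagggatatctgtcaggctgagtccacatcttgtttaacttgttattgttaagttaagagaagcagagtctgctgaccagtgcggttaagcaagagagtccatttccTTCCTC
Fcgr4 (chr1:171018676-171018925, plus strand): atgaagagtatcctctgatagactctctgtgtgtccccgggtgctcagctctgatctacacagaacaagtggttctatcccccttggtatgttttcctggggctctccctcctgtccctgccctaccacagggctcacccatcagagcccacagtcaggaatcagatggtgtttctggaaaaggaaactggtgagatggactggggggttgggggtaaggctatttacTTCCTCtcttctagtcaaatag
Chil3 (chr3:106167565-106167814, minus strand): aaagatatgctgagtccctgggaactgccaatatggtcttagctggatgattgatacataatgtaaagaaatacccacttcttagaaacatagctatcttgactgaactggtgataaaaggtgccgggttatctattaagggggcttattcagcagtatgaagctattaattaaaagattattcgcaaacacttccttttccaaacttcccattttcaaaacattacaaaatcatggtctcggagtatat
The 3 receptor promoters each held 1 match, starting at position -55 in Fcgr1, -6 in Fcgr3 and -22 in Fcgr4 relative to the annotated start. The Chil3 window held no exact GAGGAA or TTCCTC. It does hold TTCC, the start of TTCCTC, and looser forms of the PU.1 site were not searched for. Of the 38 members, 28 had a promoter in the RefSeq table, with 32 windows of 300 bases that also cover the first 50 bases of the gene. On both strands GAGGAA was found in 16 of these 32 windows, against 28.3% of the 32817 windows of all genes. The longer GAGGAAGT, which contains GAGGAA, was found in 5 of 32 member windows and in 3.20% of all windows. TGANTCA, the AP-1 site, was found in 7 and in 7.81%, and CACGTG, the E-box, in 0 and in 7.15%. These are matches of letters and were not tested against binding.

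Library totals ran from 14078936 counts in the library labelled knockout replicate 3 to 32648746 in WT replicate 3. In WT replicates 1 to 3, Hspb6 counts were 325, 289 and 296. Of the labelled knockout libraries, replicate 1 had 245, a level of 8.86 CPM (counts scaled to a common library size) just under the WT range of 8.95 to 12.6 CPM, and the libraries labelled replicates 2 and 3 had 33 and 53 counts. The library labelled knockout replicate 1 therefore stands apart from its label, and edgeR's counts of calls for the members and for each other list are also given without it. Adipocyte markers such as Adipoq and Plin1 were abundant in every library, with a summed level from 7360 to 8438 CPM in WT and from 7142 to 9455 CPM in the labelled knockout libraries. Nothing in the labels says whether the mice of a group came from separate litters or cages, so p-values measure the spread between these 3 mice per group.

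Most macrophage genes were lower in the labelled knockout libraries, by amounts that seldom passed the test. With edgeR's quasi-likelihood test and Benjamini-Hochberg adjustment over 15994 genes, 3 of 38 members fell at an adjusted p under 0.05, Lyve1, Fcgr3 and Chil3, against 3.42% of all tested genes called lower. None rose, against 4.23% called higher. At an unadjusted p under 0.05, 15 members were lower and 0 higher, against 12.7% and 13.3% of all genes. DESeq2 called 10 members lower, against 6.4% of all genes, and 0 higher, and limma-voom called 3 lower, against 3.26%, and 0 higher. The log2 change was negative for 33 of 38 members, with a median of -0.26, against 49.9% of all tested genes and a median of 0.0006. Every labelled knockout library lay below every WT library for 11 members, Adgre1, Itgam, Tyrobp, C1qb, Fcgr1, Fcgr3, Cd163, Lyve1, Mertk, Chil3 and Msr1, against 15.6% of all genes. The reverse held for 0 members, against 16.9% of all genes. Bulk RNA cannot tell fewer macrophages from less of these transcripts per macrophage.

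**Figure D1:**
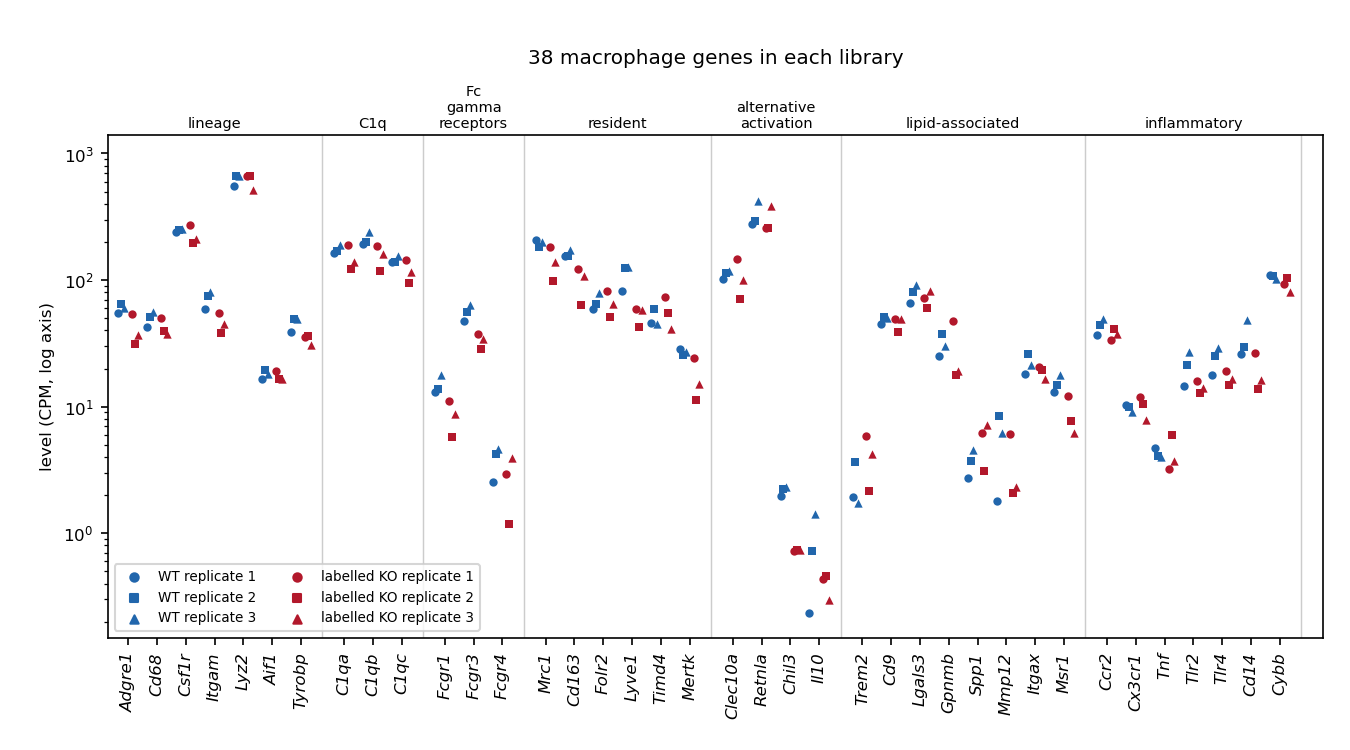
Level of each of the 38 genes (x axis, grouped by role) in CPM on a log axis, with 1 point per library, blue for WT and red for the libraries labelled knockout, and circle, square and triangle for replicates 1, 2 and 3. Red points lie below all blue points for 11 genes, among them Lyve1, Fcgr3 and Chil3.

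The labelled knockout libraries did not move alike. The library labelled replicate 1 lay below the WT range for 15 members, within it for 14 and above it for 9. Replicate 2 lay below for 27 and above for 2, and replicate 3 lay below for 28 and above for 2. The library labelled replicate 2 was the lowest of all 6 libraries for 22 of 38 members, and WT replicate 3 was the highest for 19. With labelled knockout replicate 1 left out, edgeR found 13 of 38 members lower and 0 higher, against 4.52% of all tested genes lower, and the member median was -0.46. The 10 added calls were Adgre1, C1qc, Cd14, Cd163, Fcgr1, Gpnmb, Itgam, Mertk, Mrc1 and Msr1. The number of calls also fell when WT replicate 2 or 3 was left out, over all genes (from 3.42% called lower) as for members. Without WT replicate 2 and without WT replicate 3, log2 changes were -1.54 and -1.53 for Chil3. They were -0.74 and -0.63 for Fcgr3, and -0.98 and -0.95 for Lyve1. Without WT replicate 2 or 3 edgeR called 0 of 38 members, against 0.358% and 0.328% of all genes called lower, with 10 or 9 members lower and 1 or 0 higher at an unadjusted p under 0.05. Without WT replicate 1 it called 6 lower, against 2.02% of all genes. With labelled knockout replicate 2 or 3 left out it called 2 or 1 lower, against 1.77% and 1.63%.

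The lineage genes, carried by nearly all macrophages, had 0 of 7 called, against 7.65% of all genes, and a median log2 change of -0.23. Adgre1, the adhesion receptor known as F4/80, was at 55.1, 64.4 and 60.7 CPM in WT replicates 1 to 3 and at 54.0, 31.5 and 37.1 CPM in the labelled knockout libraries. The groups did not overlap, though the library labelled replicate 1 came within 1.11 CPM of the lowest WT library. The log2 change of Adgre1 was -0.55 ± 0.19 (SE, edgeR adjusted p = 0.113), and without the library labelled replicate 1 it was -0.81 (adjusted p = 0.00698). Itgam, which encodes CD11b, the alpha chain of a complement receptor, was at 59.5, 74.6 and 80.3 CPM against 54.7, 38.5 and 45.4 CPM. Its log2 change was -0.63 ± 0.15 (edgeR adjusted p = 0.0505), just outside the threshold, and it was called by DESeq2, with robust dispersions and with no filter on low counts.

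Tyrobp, the adaptor DAP12 through which TREM2 signals, was at 39.1, 49.4 and 49.1 CPM in WT and at 35.3, 36.0 and 30.4 CPM in the labelled knockout libraries, again with no overlap. The log2 change was -0.43 ± 0.12 (edgeR adjusted p = 0.0628). Tyrobp starts 138 kb before Hspb6 on chromosome 7, and its neighbour Hcst, which encodes the related adaptor DAP10 and starts 134 kb before Hspb6, had a log2 change of 0.19 ± 0.21 (adjusted p = 0.611). The part of that position in the Tyrobp values was not tested. Lyve1, Folr2, Itgam and Itgax also lie on chromosome 7, between 71.3 and 97.6 Mb from Hspb6.

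The other lineage genes overlapped between the groups. Lyz2, the lysozyme of myeloid cells, was at 558, 666 and 667 CPM in WT and at 662, 665 and 511 CPM in the labelled knockout libraries. Its log2 change of -0.04 had a 95% interval from -0.37 to 0.29 (edgeR adjusted p = 0.887), so changes beyond that range in either direction were not seen. Aif1, the calcium-binding protein IBA1, had a log2 change of -0.06 (95% interval -0.31 to 0.19). Csf1r, the receptor for CSF1 and IL-34, had a log2 change of -0.13 (95% interval -0.42 to 0.17), and the end of its transcript overlaps Hmgxb3 on the other strand by 873 exonic bases, so the genes may share reads. Cd68, a lysosomal membrane glycoprotein, had a log2 change of -0.23 (95% interval -0.56 to 0.10).

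C1qa, C1qb and C1qc encode the 3 chains of C1q, the first component of the classical complement pathway, which tissue macrophages make. None of the 3 was called, against 7.65% of all genes, with log2 changes of -0.21, -0.44 and -0.28. C1qb was at 192, 201 and 238 CPM in WT and at 185, 119 and 162 CPM in the labelled knockout libraries. C1qa was at 163, 171 and 189.7 CPM against 190.3, 122 and 140.1 CPM, and C1qc at 138, 139 and 155 CPM against 144, 95.5 and 115 CPM. For every chain the library labelled replicate 2 was the lowest. Without the one labelled replicate 1 only C1qc among the 3 chains passed (log2 change -0.45, edgeR adjusted p = 0.0492), against 4.52% of all genes called lower. C1qa and C1qb did not pass in that fit (edgeR adjusted p = 0.057 and 0.063). Their partner proteases C1ra and C1s1 were not called either (log2 change -0.15 and -0.34).

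The Fc gamma receptors bind antibody-coated particles, and this role had the lowest median of the 7 roles, at -0.74. Fcgr3, the low-affinity activating receptor CD16, was at 47.8, 56.1 and 64.0 CPM in WT and at 37.7, 28.6 and 34.5 CPM in the labelled knockout libraries. Every labelled knockout library was lower than every WT library. Fcgr3 fell from 56.0 ± 8.11 to 33.6 ± 4.63 CPM (SD, n = 3 each). The log2 change was -0.74 ± 0.14 (SE, edgeR adjusted p = 0.0255). The call held when replicate 1 of either group was left out. It ended without WT replicate 2 (adjusted p = 0.0931) or 3 (0.101) and when labelled knockout replicate 2 (0.0542) or 3 (0.0625) was dropped. Fcgr1, the high-affinity receptor CD64, was at 13, 13.7 and 17.7 CPM against 11.1, 5.77 and 8.76 CPM, with no overlap (log2 change -0.79 ± 0.24, edgeR adjusted p = 0.0838). Fcgr4 was low, between 26 and 154 counts per library, and its groups overlapped (log2 change -0.54 ± 0.41, adjusted p = 0.442).

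Among 17 genes of signalling and complexes around the members, 2 fell and 0 rose, against 3.42% and 4.23% of all genes, and without the library labelled replicate 1 Fcer1g alone fell. Fcer1g, the common gamma chain that the activating Fc receptors need at the cell surface, was at 32.7, 38.4 and 42.0 CPM in WT and at 27.9, 24.8 and 24.8 CPM in the labelled knockout libraries (log2 change -0.54 ± 0.11, edgeR adjusted p = 0.0309). Syk, the kinase recruited by that chain, was at 184, 196 and 214 CPM against 126, 163 and 116 CPM (log2 change -0.55 ± 0.13, adjusted p = 0.0498). Syk was not called with upper quartile normalization (adjusted p = 0.0515) or limma-voom (0.0504), and of the 6 fits without 1 library it was called once, with labelled knockout replicate 2 left out. Fcer1g lost its call without WT replicate 2 (adjusted p = 0.105) or 3 (0.120), or with labelled knockout replicate 2 (0.0748) or 3 (0.0778) dropped.

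**Figure D2:**
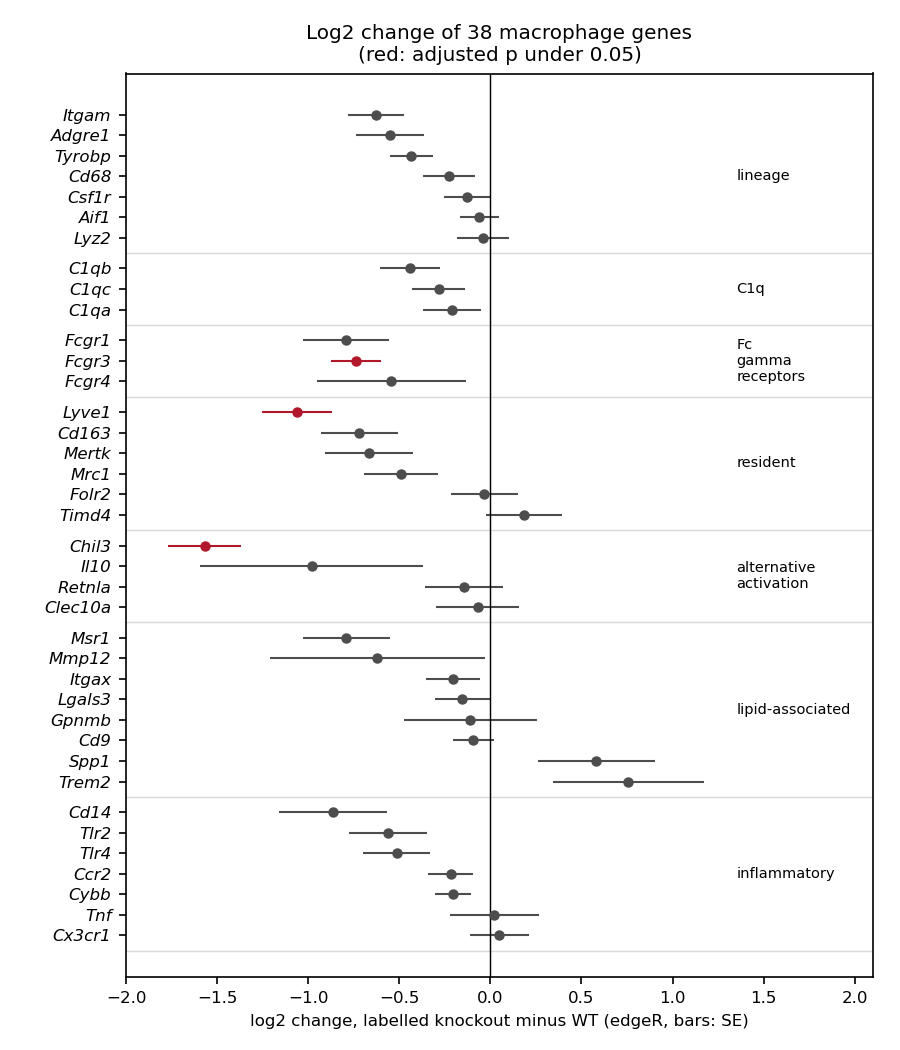
Log2 change from WT to the libraries labelled knockout (x axis) for each of the 38 genes (y axis, by role), from edgeR, with bars of 1 SE and called genes in red. Points lie left of 0 for 33 genes, and the 3 called genes are Fcgr3, Lyve1 and Chil3.

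Markers of resident macrophages had 1 of 6 called lower and 0 higher, against 3.42% and 4.23% of all genes, with a median of -0.58. Lyve1, a hyaluronan receptor of perivascular macrophages and of lymphatic endothelium, was at 82.1, 124 and 127 CPM in WT and at 59.1, 42.5 and 57.8 CPM in the labelled knockout libraries. The groups did not overlap, and WT replicate 1 was the lowest of its group. Lyve1 fell 2.09-fold, from 111 ± 25 to 53.2 ± 9.21 CPM (SD, n = 3 each; log2 change -1.06 ± 0.19 SE, edgeR adjusted p = 0.0228). The call ended without WT replicate 2 (adjusted p = 0.092) or 3 (0.0975), and with labelled knockout replicate 2 (0.0506) or 3 (0.0539) dropped. In the lymphatic endothelium list of 6 genes, Lyve1 was the only call, against 7.65% of all genes called. It was also the only call without the library labelled replicate 1, against 10.3% of all genes. The defining factor Prox1 was at 1.98, 0.979 and 0.907 CPM in WT and at 1.27, 0.962 and 0.891 CPM in the labelled knockout libraries (log2 change -0.26 ± 0.36). Flt4, the lymphatic growth factor receptor, was at 21.1, 23.4 and 18.8 CPM against 17.9, 19.0 and 17.5 CPM (adjusted p = 0.230). Pdpn, a membrane glycoprotein of lymphatic vessels, was at 16.5, 16.9 and 22.2 CPM against 15.1, 8.43 and 14.4 CPM, and Reln, a secreted matrix protein, at 11.1, 7.90 and 9.52 CPM against 7.70, 6.64 and 7.28 CPM. Neither overlapped between the groups, with log2 changes of -0.55 and -0.40 (unadjusted p = 0.0415 and 0.0348, edgeR adjusted p = 0.174 and 0.158). Ccl21a, the lymphatic chemokine, had a log2 change of 0.37 (adjusted p = 0.317). The part of lymphatic cells in the Lyve1 values was not tested. The summed list, Lyve1 included, ran from 291.5 to 357 CPM in WT and from 257 to 370.0 CPM in the labelled knockout libraries.

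Cd163, the haemoglobin scavenger receptor, was at 155, 154 and 174 CPM in WT and at 122, 64.1 and 107 CPM in the labelled knockout libraries, with no overlap. Its log2 change was -0.72 ± 0.21 (edgeR adjusted p = 0.0812), and without the library labelled replicate 1 it was -0.91 (adjusted p = 0.0368). Mertk, the receptor through which macrophages bind apoptotic cells, was at 28.3, 25.6 and 26.8 CPM against 24.1, 11.3 and 15.1 CPM. The log2 change of Mertk was -0.67 ± 0.24 (edgeR adjusted p = 0.135), or -1.04 without the library labelled replicate 1 (adjusted p = 0.00642). Mrc1, the mannose receptor CD206, was at 208, 182 and 200.3 CPM against 183, 97.5 and 139.6 CPM (log2 change -0.49 ± 0.20, adjusted p = 0.179). Here the library labelled replicate 1 fell inside the WT range.

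Folr2 and Timd4 were not low in every labelled knockout library. Folr2, a folate receptor of resident macrophages, was at 58.8, 64.9 and 79.5 CPM in WT and at 82.7, 50.9 and 65.0 CPM in the labelled knockout libraries (log2 change -0.03, 95% interval -0.46 to 0.39). Timd4, the phosphatidylserine receptor TIM4 of long-lived resident macrophages, was at 46.1, 59.1 and 45.2 CPM against 74.1, 54.9 and 41.1 CPM (log2 change 0.18, 95% interval -0.30 to 0.66). Both spanned the WT range. Timd4 turned to -0.06 without the library labelled replicate 1, which held its highest value. Whether Timd4 differed from Lyve1 in its response was not tested.

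**Figure D3:**
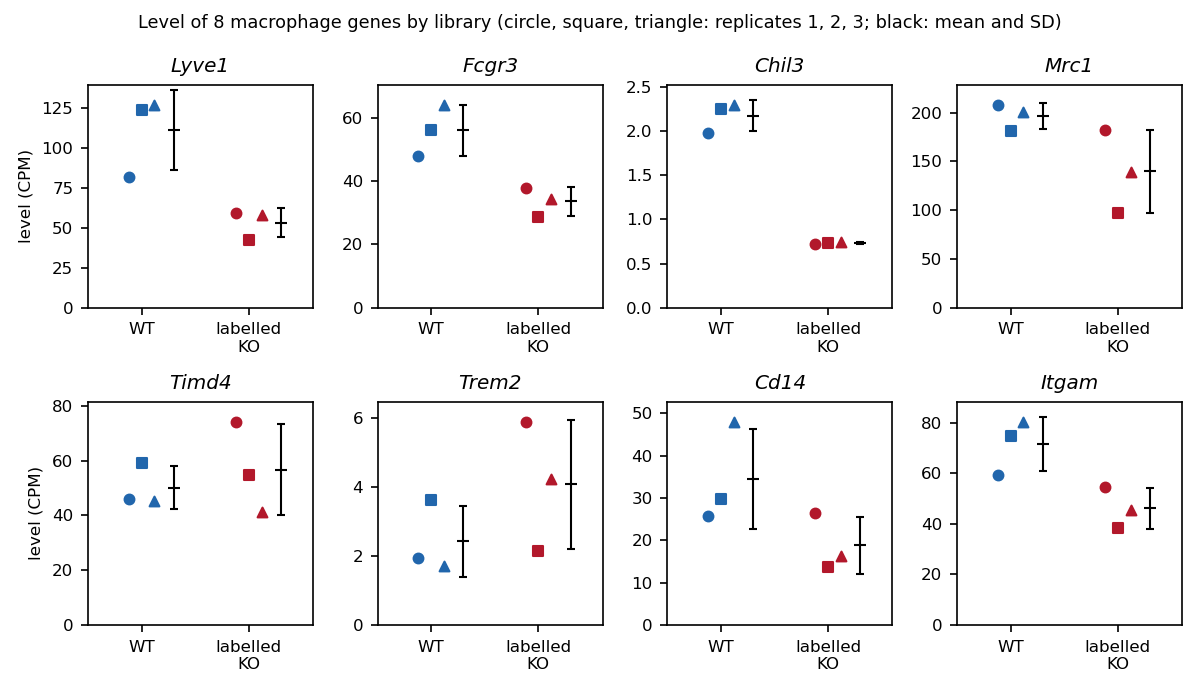
Level in CPM (y axes, each from 0) of 8 genes in WT (blue) and in the libraries labelled knockout (red), with circle, square and triangle for replicates 1, 2 and 3 and black marks for the mean and SD of 3 mice. Lyve1, Fcgr3, Chil3 and Itgam show no overlap of the groups, while Mrc1, Timd4, Trem2 and Cd14 overlap through 1 or more libraries.

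Genes of alternative activation, the state induced by interleukin 4, had 1 of 4 called lower and 0 higher, against 3.42% and 4.23% of all genes. Chil3, the chitinase-like lectin Ym1, had 51, 69 and 76 counts in WT and 20, 16 and 10 counts in the labelled knockout libraries. As CPM these were 1.98, 2.25 and 2.30 against 0.723, 0.733 and 0.743, so the groups were far apart and the labelled knockout libraries, replicate 1 included, nearly equal. Chil3 fell 2.97-fold (log2 change -1.57 ± 0.20 SE, edgeR adjusted p = 0.00844), the largest fall among the 38. At 10 to 20 counts per library, counting noise alone is expected to spread the labelled knockout values more than was seen. Their closeness therefore says little about the spread between mice, and the SE and adjusted p may be too small. The call ended when WT replicate 2 (adjusted p = 0.0565) or 3 (0.0544) was left out. Its near copy Chil4 shares 22.4% of the 50-base words of the Chil3 transcript and had 9, 11 and 15 counts in WT and 2, 2 and 0 in the labelled knockout libraries. With the treatment of reads that match both copies unstated, the Chil3 value is uncertain. Chil3 is also made by monocytes, whose other markers Ly6c2 and Plac8 had log2 changes of -0.07 and -0.23 and were not called.

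Retnla, the secreted protein RELM-alpha, was at 278, 293 and 422 CPM in WT and at 259, 258 and 384 CPM in the labelled knockout libraries (log2 change -0.14, 95% interval -0.64 to 0.35). Clec10a, a galactose-type lectin, was at 102, 113 and 118 CPM against 146, 70.4 and 101 CPM (log2 change -0.07, 95% interval -0.61 to 0.46). Both overlapped between the groups. Il10, the anti-inflammatory cytokine, had between 4 and 47 counts per library, and its log2 change of -0.98 ± 0.61 did not pass (edgeR adjusted p = 0.353). Of the ligands of this state, Il4 and Il13 were under the filter on low counts and were not tested.

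The lipid-associated genes had 0 of 8 called, against 7.65% of all genes, and a median of -0.13. Trem2, the lipid-sensing receptor that defines this state, was at 1.94, 3.62 and 1.72 CPM in WT and at 5.89, 2.15 and 4.23 CPM in the labelled knockout libraries. Its log2 change was 0.76 ± 0.41 (edgeR adjusted p = 0.291), the highest of the 38, with the highest level in the library labelled replicate 1 and overlap of the groups. Spp1, the secreted phosphoprotein osteopontin, was at 2.72, 3.69 and 4.51 CPM against 6.22, 3.11 and 7.20 CPM (log2 change 0.58 ± 0.32, adjusted p = 0.299). Both genes were low, with at most 172 counts in a library.

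Gpnmb, a lysosome-associated glycoprotein, was at 24.9, 37.6 and 29.9 CPM in WT and at 47.7, 17.8 and 19.2 CPM in the labelled knockout libraries. The library labelled replicate 1 held the highest value of the 6 and the other two the lowest, so the log2 change moved from -0.11 (edgeR adjusted p = 0.878) to -0.74 without it (adjusted p = 0.0437), and it was 0.14 or 0.10 without replicate 2 or 3. Mmp12, the macrophage elastase, showed a wide spread in both groups, from 1.79 to 8.49 CPM in WT and from 2.06 to 6.11 CPM in the labelled knockout libraries (log2 change -0.62 ± 0.59). Msr1, the scavenger receptor for modified lipoproteins, was at 13.1, 14.7 and 17.6 CPM against 12.0, 7.65 and 6.24 CPM, with no overlap (log2 change -0.79 ± 0.24, edgeR adjusted p = 0.0851). Without the library labelled replicate 1 it was -1.12 (adjusted p = 0.012). Cd9, a tetraspanin, and Lgals3, a galactoside-binding lectin, had log2 changes of -0.09 (95% interval -0.35 to 0.16) and -0.15 (-0.51 to 0.20). Itgax, the integrin CD11c shared with dendritic cells, had a log2 change of -0.21 (95% interval -0.55 to 0.14).

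The inflammatory genes had 0 of 7 called, against 7.65% of all genes, and a median of -0.22, and no member separated the groups. Cd14, the co-receptor for bacterial lipopolysaccharide, was at 25.9, 29.7 and 48.0 CPM in WT and at 26.5, 13.8 and 16.3 CPM in the labelled knockout libraries. The overlap came from the library labelled replicate 1, which lay just above the lowest WT value. The log2 change of Cd14 was -0.86 ± 0.30 (edgeR adjusted p = 0.120), and -1.21 without that library (adjusted p = 0.0366). Tlr4, the receptor that CD14 serves, was at 17.9, 25.2 and 29.1 CPM against 19.1, 14.9 and 16.4 CPM, and Tlr2, which binds bacterial lipopeptides, at 14.7, 21.2 and 27.1 CPM against 15.8, 12.7 and 14.1 CPM. Their log2 changes were -0.51 ± 0.18 and -0.56 ± 0.21 (edgeR adjusted p = 0.129 and 0.147), and both were called when WT replicate 1, the lowest of WT, was left out. The signalling adaptor Myd88 and the Toll-like receptor partner Ly96 had log2 changes of -0.44 (adjusted p = 0.0737) and -0.18 (0.627).

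Tnf, the inflammatory cytokine, was at 4.74, 4.05 and 3.99 CPM in WT and at 3.22, 6.00 and 3.71 CPM in the labelled knockout libraries (log2 change 0.02, 95% interval -0.55 to 0.59). Cx3cr1, the fractalkine receptor, was at 10.2, 9.99 and 9.13 CPM against 11.9, 10.4 and 7.80 CPM (log2 change 0.05, 95% interval -0.33 to 0.43). Ccr2, the receptor that brings monocytes into tissue, was at 36.9, 44.2 and 49.5 CPM against 33.9, 40.9 and 37.7 CPM (log2 change -0.22, 95% interval -0.50 to 0.07). Cybb, the catalytic subunit of the phagocyte NADPH oxidase, had a log2 change of -0.20 (95% interval -0.43 to 0.03). Its partners Cyba, Ncf1 and Ncf4 had changes of -0.06, -0.27 and -0.20 with 0 calls, against 7.65% of all genes.

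Of 13 ligands of these receptors, 11 were tested, 2 fell and 0 rose, against 3.42% and 4.23% of all genes. Without the library labelled replicate 1 Il34 fell as well (3 of 11), against 4.52% of all genes. Both that fell with all libraries are ligands of CCR2. Ccl7 was at 13.3, 22.3 and 44.2 CPM in WT and at 5.46, 3.89 and 2.30 CPM in the labelled knockout libraries (log2 change -2.73 ± 0.48, edgeR adjusted p = 0.0206). The WT values of Ccl7 spanned more than the distance to the labelled knockout libraries, yet the groups did not overlap. Ccl2 was at 13.3, 17.3 and 29.8 CPM against 3.15, 4.17 and 2.75 CPM (log2 change -2.58 ± 0.32, adjusted p = 0.00776), and it was called in each fit without 1 library, with adjusted p from 0.0112 to 0.0376. Leaving out WT replicate 2 or 3 ended the Ccl7 call (adjusted p = 0.0664 and 0.0544), as did leaving out labelled knockout replicate 2 or 3 (0.0572 and 0.0577). Il34 and Csf1, the ligands of CSF1R, had log2 changes of -0.57 ± 0.16 (edgeR adjusted p = 0.0678) and -0.38 ± 0.16 (0.187). Cx3cl1, the ligand of CX3CR1, had a log2 change of -0.52 ± 0.15 (adjusted p = 0.0727), and Gas6 and Pros1, ligands of MERTK, of -0.08 and -0.24.

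Resident, lipid-associated and inflammatory genes were compared by the median, over the genes of a role, of each library's log2 CPM minus the WT mean of the gene. For resident genes these medians were -0.08, -0.06 and 0.07 in WT and -0.13, -1.13 and -0.54 in the labelled knockout libraries. The groups did not overlap, but the library labelled replicate 1 lay within 0.051 of WT. For lipid-associated genes they were -0.26, 0.17 and 0.14 against 0.22, -0.36 and -0.19, and for inflammatory genes -0.23, 0.03 and 0.20 against -0.33, -0.08 and -0.39, with overlap in both. The library labelled replicate 2 was the lowest for resident and lipid-associated genes and the highest of the labelled knockout libraries for inflammatory genes. The Fc gamma receptors (-0.40, -1.33 and -0.69 in the labelled knockout libraries) and the alternative activation genes (-0.41, -0.54 and -0.54) also lay below WT throughout, while the lineage genes (0.03, -0.33 and -0.41) and the C1q chains (0.0045, -0.59 and -0.32) did not. The median over all tested genes stayed within 0.0032 of 0 in every library. These medians describe the lists, and the differences between roles were not tested.

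**Figure D4:**
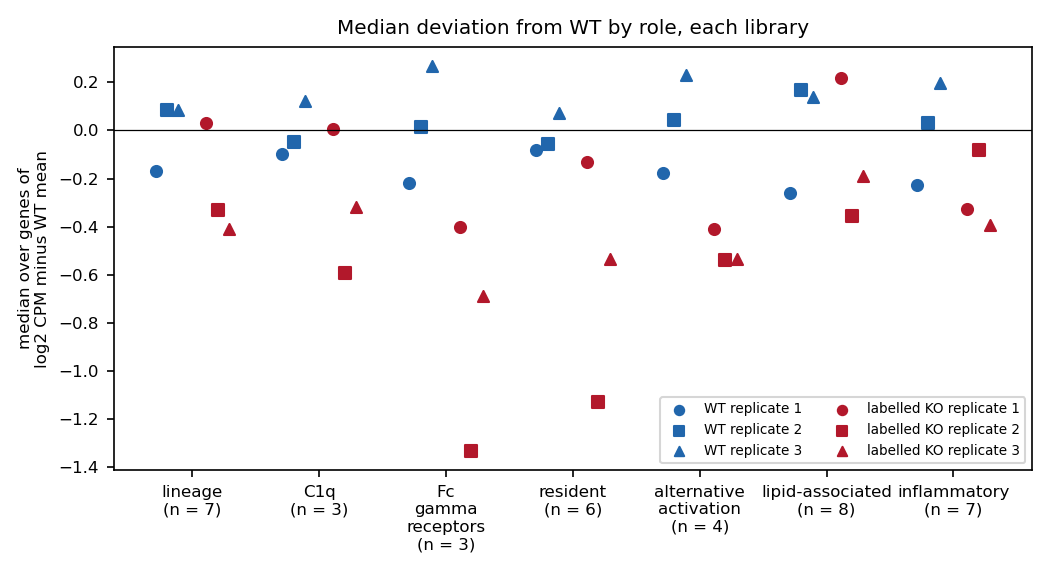
Median over the genes of each role (x axis, n genes) of log2 CPM minus the WT mean of the gene (y axis), with 1 point per library, blue for WT and red for the libraries labelled knockout, and circle, square and triangle for replicates 1, 2 and 3. Resident genes reach -1.13 and -0.54 in the libraries labelled replicates 2 and 3, against -0.13 in replicate 1, while lipid-associated and inflammatory genes overlap with WT.

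Of 28 further macrophage genes, 26 were tested, 2 fell and 0 rose, against 3.42% and 4.23% of all genes, with a median of -0.15. Without the library labelled replicate 1, 27 were tested, 5 fell and 1 rose, against 4.52% of all genes lower and 941 of 16167 higher. The added falls were Ms4a7, Maf and Pf4, and the rise was Plin2. Il1b, an inflammatory cytokine and 1 of those that fell, was at 3.61, 8.91 and 9.49 CPM in WT and at 2.39, 1.79 and 1.34 CPM in the labelled knockout libraries (log2 change -1.96 ± 0.39, edgeR adjusted p = 0.0296). Its call was lost when replicate 2 or 3 of either group was dropped (adjusted p from 0.0749 to 0.115), and limma-voom did not call it (0.0655). Ms4a7, Plin2, Cd53 and Maf had the next smallest p, with log2 changes of -0.45, 0.70, -0.40 and -0.46 (edgeR adjusted p from 0.0824 to 0.133). Plin2 coats lipid droplets in adipocytes too. In the MHC class II list, by which macrophages, dendritic cells and B cells present antigen, 1 of 7 fell, against 3.42% of all genes. The log2 change was negative for 6 and positive for 1, with a median of -0.40. For 4 of the 7 every labelled knockout library lay below every WT library, against 15.6% of all genes. Among these, H2-Aa and H2-Eb1 both had a log2 change of -0.48 but were not called (edgeR adjusted p = 0.0768 and 0.0637). H2-Ab1 fell from 598, 640 and 675 CPM in WT to 452, 480.3 and 372 CPM (log2 change -0.55 ± 0.13, edgeR adjusted p = 0.0417). That call held with labelled knockout replicate 1 left out (adjusted p = 0.0431) and ended in each of the other 5 fits without 1 library (adjusted p from 0.0526 to 0.165).

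Other cells of the depot share some of these transcripts. Neutrophils also carry Itgam, Cd14 and Fc gamma receptors. Of 6 tested neutrophil genes 2 fell and 0 rose, against 3.42% and 4.23% of all genes, with a median log2 change of -0.92. The calls were Cxcr2 (log2 change -0.57 ± 0.08, edgeR adjusted p = 0.00956) and Csf3r (-0.65 ± 0.12, 0.0244). S100a9, S100a8 and Retnlg had larger negative log2 changes, of -1.49, -1.34 and -1.20, but were not called (adjusted p = 0.0664, 0.0567 and 0.0786). For 5 of the 6 every labelled knockout library lay below every WT library, against 15.6% of all genes, and 1 had a positive log2 change. The summed neutrophil list ran from 80.8 to 89.3 CPM in WT and from 47.2 to 56.2 CPM in the labelled knockout libraries, and none of its 7 measured genes was at 0 in any library. Dendritic cell genes had 1 of 7 lower, against 3.42% of all genes, Cd209a (log2 change -0.60 ± 0.12, edgeR adjusted p = 0.0311). Their sum was 161 to 184 CPM in WT against 132 to 189.9 CPM. B cell genes summed to 620 to 654 CPM in WT and to 411, 799.7 and 400.0 CPM in the labelled knockout libraries, with 0 of 6 called and the highest level in replicate 2, the library in which most macrophage genes were lowest. Progenitor genes summed to 1363 CPM in that library, against 2003 to 2265 CPM in WT, with 0 of 6 called, and 0 of 6 mast cell genes were called. All 6 B cell genes and all 6 progenitor genes had negative log2 changes. Their medians were -0.27 and -0.26, against -0.26 for the 38 members. All 6 T cell genes had positive log2 changes, from 0.21 to 0.45 with a median of 0.32, but 0 were called. Their summed level ran from 275 to 328 CPM in WT and was 401, 426 and 281 CPM in the labelled knockout libraries. Without the library labelled replicate 1, edgeR called 3 of 6 mast cell genes lower (Cpa3, Mcpt4 and Tpsb2), against 4.52% of all genes. It also called 2 of 6 progenitor genes lower (Dpp4 and Pdgfra), 0 B cell or T cell genes, and the same 2 neutrophil genes and 1 dendritic cell gene as with that library. Of 6 monocyte genes 1 rose, Nr4a1, and 1 fell, Chil3, with or without that library, against 4.23% and 3.42% of all genes with it. For Nr4a1 the log2 change was 0.79 ± 0.16 with all libraries (edgeR adjusted p = 0.0314). In neither fit was any of the 6 adipocyte genes called. For the lists with 0 called, the share called over all genes was 7.65% with all libraries. It was 10.3% without the library labelled replicate 1. The part of these cells in the macrophage values was not tested. Without WT replicate 3, Cxcr2, Csf3r and Cd209a were not called (adjusted p = 0.0548, 0.0944 and 0.104). Csf3r and Cd209a were also not called without WT replicate 2 (0.0766 and 0.0934) or with labelled knockout replicate 2 (0.0582 and 0.0651) or 3 (0.0601 and 0.0751) dropped.

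Per kilobase of merged exons, Retnla was the most abundant member in WT, at 553 CPM per kb, followed by Lyz2 at 479 and C1qb, C1qa and C1qc at 193, 168 and 120 CPM per kb. In the labelled knockout libraries Retnla (501.0 CPM per kb) and Lyz2 (466) kept these places, and C1qa (145) and C1qb (143) changed places within their spread. Tyrobp, Folr2, Csf1r, Lgals3 and Clec10a held places 6 to 10 in both groups. Lyve1 went from place 14 to 18 and Fcgr3 from 11 to 15, while Trem2 went from 35 to 28. The least abundant were Chil3, Mmp12 and Il10, at 1.41, 1.38 and 0.604 CPM per kb in WT. Among receptors, Csf1r was at 50.5 CPM per kb in WT and Ccr2 at 6.44 CPM per kb.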

How the data were processed

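RNA sequencing libraries of inguinal fat from 3 WT mice and 3 mice labelled Hsp20 knockout were compared. The values are raw read counts as deposited by the authors, 1 column a mouse. Per the submitters' processing notes, bcl2fastq, CASAVA 1.8, TopHat and DESeq were used, with builds named mm10 and GRCm38. The counter and its strand setting are unstated in the labels, so overlapping genes and near copies may share reads. RefSeq GRCm38.p6 gave symbols for 24334 of 24415 gene IDs.

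Genes were filtered with filterByExpr (minimum count 10, minimum total 15), scaled with TMM and tested with edgeR 4.0.16 in R 4.3.3 (quasi-likelihood, genotype only, Benjamini-Hochberg, threshold 0.05), after a check on simulated data. SE and 95% intervals come from that fit and are not adjusted for the number of genes. Role medians use log2 CPM with a prior count of 2. Exon lengths and positions come from GENCODE on GRCm38. Alternatives were DESeq2 1.42.0, limma-voom (limma 3.58.1), other scalings and filters, a replicate block and leaving out each library. Replicate libraries differed by more than sampling noise.

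The members, roles and lists were chosen with earlier results of these data known. By rule all members may be named, with the called genes of each other list and up to 4 uncalled ones of smallest p. Hcst, C1ra, C1s1, Myd88, Ly96, Cyba, Ncf1, Ncf4, Gas6, Pros1, Prox1, Flt4, Ly6c2, Plac8, Il4, Il13, Pdpn, Reln, Ccl21a, Cpa3, Mcpt4, Tpsb2, Dpp4, Pdgfra, Pf4, Chil4, Fcgr2b and Lyz1 are named for their role or their call without 1 library and were chosen after their values were seen. Some genes of the lists are not reported here.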

Additional observations from a re-analysis of the deposited data

How the results depend on the processing

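Of the 38 log2 changes, 38 kept their direction and call with DESeq2 size factors or upper quartile normalization, and 37 with limma-voom, where Tnf turned from 0.02 to -0.03. DESeq2 called 10 members lower (7 more, and 1135 genes higher and 1024 lower overall), and a threshold of 0.1 called 8 (1250 and 1126 overall). Leaving out 1 library at a time called between 0 and 13 members lower, and between 75 and 941 genes higher and 53 and 730 lower overall. Members called higher stayed at 0 in every alternative run. With the replicate number as a block edgeR called 1 member lower, Chil3, and 226 genes higher and 169 lower overall. The numbers do not pair the samples, since deviations of same-numbered libraries correlated at -0.04, 0.09 and -0.10, so this fit says little. Role medians moved by less than the WT spread with a prior count of 0.5 or 5. With 4 to 47 counts of Il10, 10 to 76 of Chil3 and 26 to 154 of Fcgr4 per library, depth limits these genes most.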

Other observations

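Some genes related to the members were looked at after the members' values were seen. Fcgr2b, the inhibitory Fc gamma receptor, which B cells also carry, was at 67.3, 69.0 and 79.8 CPM in WT and at 46.6, 38.4 and 49.1 CPM in the libraries labelled knockout (log2 change -0.69 ± 0.11 SE, edgeR adjusted p = 0.0177). It shares 0 of the 50-base words of the Fcgr3 transcripts. The call of Fcgr2b held without any 1 of the labelled knockout libraries or WT replicate 1 and ended without WT replicate 2 (adjusted p = 0.0693) or 3 (0.0831). For Lyz1, the near relative of Lyz2, the log2 change was -0.26 ± 0.13 (edgeR adjusted p = 0.234).

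Ratios between members within a library do not depend on library size. The ratio of C1qa to C1qb per kilobase was 0.887, 0.888 and 0.834 in WT and 1.08, 1.07 and 0.904 in the libraries labelled knockout. The log2 changes of the 2 chains were -0.21 ± 0.16 and -0.44 ± 0.16. These errors come from each gene alone and do not measure the spread of the ratio. The ratio of Timd4 to Adgre1 was 1.25, 1.37 and 1.11 against 2.05, 2.60 and 1.65. Of 11 such ratios computed, these 2 separated the groups. They were picked for that and were not tested.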
